A study of Saccharomyces cerevisiae with 15 samples.

Results

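The ribosomal stalk genes are represented here by 6 intergenic probes of the 6803 probes on each array. A probe belonged to a stalk gene if the 5′ end of that gene faced its region, so that the probe covers the gene's promoter side, and each of the 6 genes RPL12A, RPL12B, RPP0, RPP1A, RPP1B and RPP2B had 1 such probe. This rule uses no measured value, although the genes were picked with earlier results of these data known. The study mapped where Fhl1 and Ifh1 sit on the genome of budding yeast (Saccharomyces cerevisiae) with and without rapamycin. It used chromatin immunoprecipitation followed by hybridisation to a spotted DNA array (ChIP-chip).

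All strains were W303, a common laboratory strain. Cells carried either IFH1-13myc-TRP1MX6 or FHL1-13myc-HIS3MX6, which append a myc epitope to the protein at its own gene, and an antibody against myc precipitated the chromatin. Cultures grew in YPD, a rich medium, to log phase at 30 °C, and crosslinking lasted 30 min. There were 3 arrays of Ifh1 with rapamycin, 4 of Ifh1 untreated, 5 of Fhl1 with rapamycin and 3 of Fhl1 untreated, with rapamycin at 200 ng/mL. Every array set the tagged strain's DNA against that of untagged W303, and the labels do not state whether this reference also received rapamycin. Replicates are biological, per the labels.

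The stalk is the flexible arm of the large ribosomal subunit that recruits and stimulates the GTPases of translation, such as the elongation factors. The protein of RPL12A and RPL12B and the protein P0 (RPP0) form its base on the ribosomal RNA, and P0 carries the acidic proteins as dimers of P1α (RPP1A) with P2β (RPP2B) and of P1β (RPP1B) with P2α (RPP2A). Fhl1 is a forkhead-type factor bound at ribosomal protein (RP) promoters, Ifh1 is the coactivator it recruits there, and rapamycin inhibits the TOR kinase complex that couples RP transcription to growth.

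The 6 promoter probes differed in their means, although differences between genes were not tested. Averaged over the 12 arrays on which RP promoters in general stood apart from the array median, RPL12A, RPL12B and RPP1B lay well above it. RPP0 lay less far above the median, and RPP1A and RPP2B lay near or below it. On single arrays the order varied, and RPL12A lay above the median on 10 of these 12. Values are log2 ratios from which the array's median was subtracted. A value of 1 is therefore a 2-fold distance from the median probe's ratio, upward as deposited or, on arrays turned as described next, downward. The side on which RP promoters fell differed between arrays of 1 group. As deposited, correlations between arrays of a group ran from -0.71 to 0.60 over RP probes and from -0.18 to 0.15 over all probes. Arrays of a group therefore shared little over all probes. Although the labels report 1 dye swap per condition, they do not say which array it is. The direction of the ratio is not settled by the labels. An array was therefore turned (multiplied by -1) where the median of the 126 promoter probes of other RP genes lay below -0.3, which concerned 7 arrays. The stalk probes had no part in this, whereas the positive side of the other RP probes, and so in part their counts of higher calls, is set by it. A positive value means the side on which other RP promoters lay. On the 3 Ifh1 rapamycin arrays that median was between -0.08 and 0.02, so their signs are unsettled and were kept as deposited. The size of the median was 0.04 ± 0.04 on the Ifh1 rapamycin arrays (SD, n = 3), 0.87 ± 0.05 on Ifh1 untreated (n = 4), 1.09 ± 0.30 on Fhl1 rapamycin (n = 5) and 1.20 ± 0.40 on Fhl1 untreated arrays (n = 3). The arrays turned were 2 of 4 for Ifh1 untreated, 3 of 5 for Fhl1 rapamycin and 2 of 3 for Fhl1 untreated. A single dye swap in a condition would set 1 array apart, which differs from the Ifh1 untreated and Fhl1 rapamycin splits. The reason was not tested. With all signs as deposited, limma called 0 of the 6 stalk probes in every group and comparison, and 205 to 615 of all probes had an unadjusted p under 0.05.

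**Figure D1:**
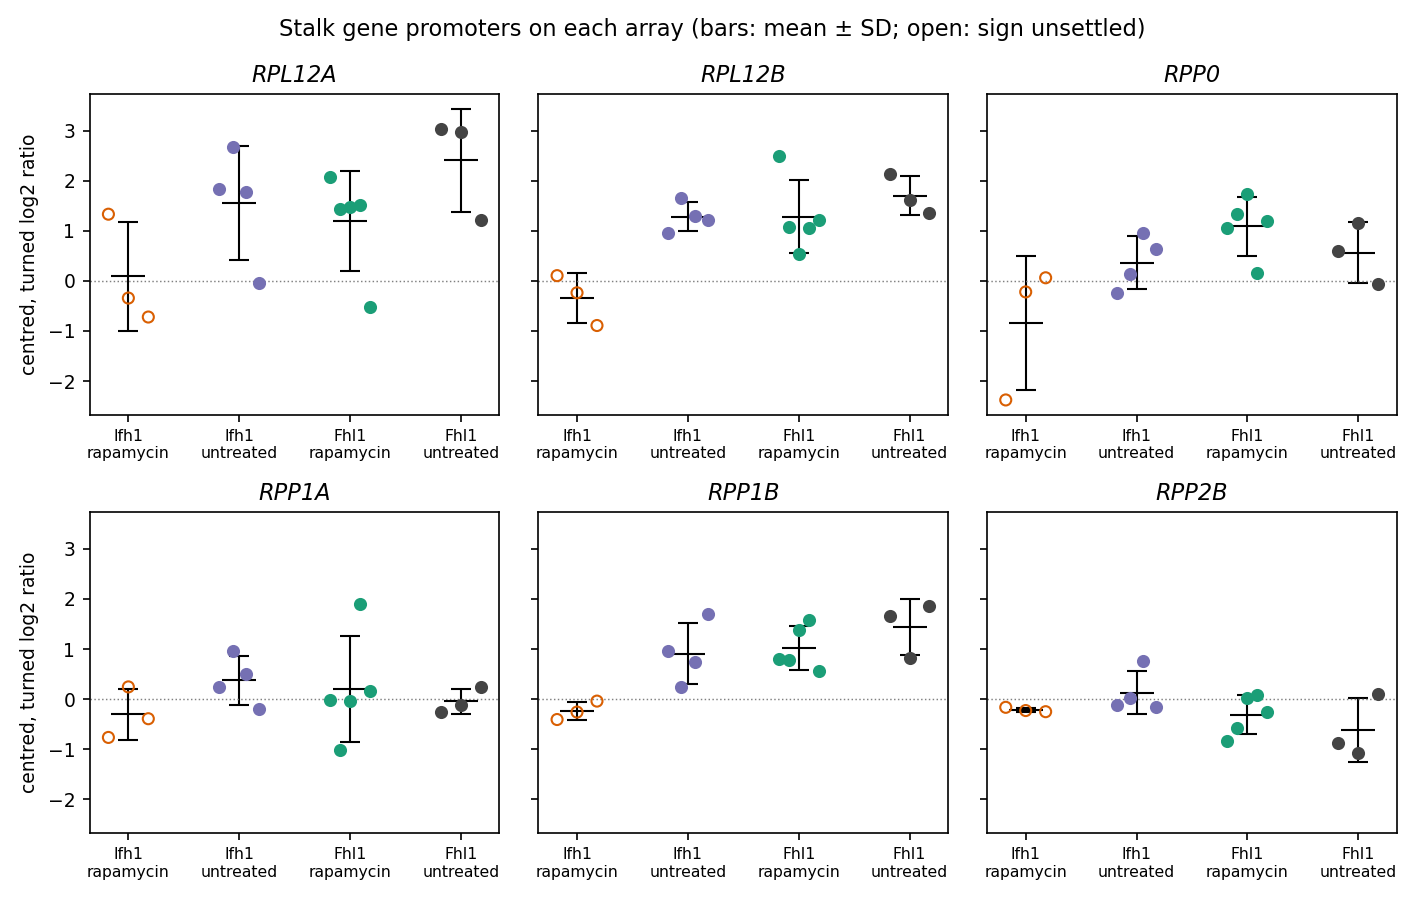
Centred log2 ratio (turned where other RP promoters lay below the median) of the 5′ probe of each stalk gene, 1 point per array, with the mean ± SD of each group. Open points are Ifh1 rapamycin arrays, whose sign is unsettled. RPL12B and RPP1B lie above 0 on all 12 arrays of the other groups, and RPP2B on 5 of them.

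RPL12A and RPL12B encode the same protein of the stalk base. The RPL12A probe (5′ of YEL054C on chromosome V) read 1.33, -0.34 and -0.72 on the Ifh1 rapamycin arrays. It read 1.83, 2.67, 1.78 and -0.04 on the Ifh1 untreated arrays. These groups overlapped, through the fourth untreated array and the first rapamycin array. On the Fhl1 rapamycin arrays the same probe read 2.07, 1.44, 1.48, 1.51 and -0.52, and on the Fhl1 untreated arrays 3.04, 2.96 and 1.21. Apart from the fifth rapamycin array all Fhl1 values lay above 1, and the highest 2 of all were from untreated cells. The means were 0.09 ± 1.09 for Ifh1 rapamycin, 1.56 ± 1.14 for Ifh1 untreated, 1.20 ± 0.99 for Fhl1 rapamycin and 2.41 ± 1.03 for Fhl1 untreated (SD, n = 3, 4, 5 and 3). The Fhl1 untreated mean is a 5.30-fold distance from the median probe, toward the side of other RP promoters, and the 6th highest of the 133 RP promoter probes.

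The RPL12B probe (5′ of YDR418W on chromosome IV) read 0.10, -0.24 and -0.89 on the Ifh1 rapamycin arrays. On the Ifh1 untreated arrays it read 0.96, 1.65, 1.30 and 1.22. Whatever the sign, each of these 3 rapamycin values was smaller in size than each of these 4 untreated ones. The same held for 3.31% of all probes and for 35 of the 126 other RP probes. The Fhl1 rapamycin arrays gave 2.50, 1.07, 0.53, 1.06 and 1.22, and the Fhl1 untreated arrays gave 2.13, 1.62 and 1.35. The Fhl1 groups overlapped, and no value of either was below 0.5. Means were -0.34 ± 0.51 for Ifh1 rapamycin, 1.28 ± 0.28 for Ifh1 untreated, 1.28 ± 0.73 for Fhl1 rapamycin and 1.70 ± 0.39 for Fhl1 untreated.

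RPP0 encodes P0, the anchor of the acidic proteins. Its probe (5′ of YLR340W on chromosome XII) also faces the 5′ end of VRP1, and the reading frame that names it is missing from the R64 gene table, so it was placed by the order of systematic names. It read -2.38, -0.22 and 0.06 on the Ifh1 rapamycin arrays and -0.25, 0.13, 0.95 and 0.64 on the Ifh1 untreated arrays. Apart from -2.38, the rapamycin values lay within the range of the untreated ones. The Fhl1 rapamycin arrays gave 1.05, 1.34, 1.74, 0.15 and 1.19, and the Fhl1 untreated arrays gave 0.59, 1.16 and -0.06. These groups overlapped as well, with means of 1.09 ± 0.59 in Fhl1 rapamycin (n = 5) and 0.56 ± 0.61 in Fhl1 untreated (n = 3). Its Ifh1 means were -0.85 ± 1.33 with rapamycin (n = 3) and 0.37 ± 0.53 untreated (n = 4).

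RPP1B encodes P1β. Its probe (5′ of YDL130W on chromosome IV) read -0.41, -0.26 and -0.04 on the Ifh1 rapamycin arrays and 0.96, 0.24, 0.74 and 1.70 on the Ifh1 untreated arrays. In size these groups overlapped, since 0.24 lay among the rapamycin sizes. The Fhl1 rapamycin arrays gave 0.80, 0.79, 1.38, 1.58 and 0.57, and the Fhl1 untreated arrays 1.65, 0.81 and 1.86. The Fhl1 groups overlapped. Group means were -0.24 ± 0.18 for Ifh1 rapamycin, 0.91 ± 0.61 for Ifh1 untreated, 1.02 ± 0.43 for Fhl1 rapamycin and 1.44 ± 0.56 for Fhl1 untreated.

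RPP2A, which encodes the partner of P1β, is not a member. Its promoter region is shared with the divergent gene RPS15, and the 1 probe there cannot separate them. This probe averaged 0.61 ± 0.48 on Ifh1 rapamycin, 1.17 ± 0.61 on Ifh1 untreated, 1.92 ± 1.14 on Fhl1 rapamycin and 1.83 ± 0.55 on Fhl1 untreated arrays. It lay above 0 on 12 of 12 arrays outside Ifh1 rapamycin.

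RPP1A and RPP2B encode P1α and P2β, the other dimer. The RPP1A probe (5′ of YDL081C on chromosome IV) read -0.77, 0.24 and -0.39 on the Ifh1 rapamycin arrays and 0.24, 0.96, 0.49 and -0.20 on the Ifh1 untreated arrays. It read -0.01, -1.02, -0.04, 1.89 and 0.17 on the Fhl1 rapamycin arrays and -0.25, -0.11 and 0.24 on the Fhl1 untreated arrays. All 4 groups spanned 0, and the value of 1.89 was the single one above 1. Its means were -0.30 ± 0.51 for Ifh1 rapamycin, 0.38 ± 0.49 for Ifh1 untreated, 0.20 ± 1.06 for Fhl1 rapamycin and -0.04 ± 0.25 for Fhl1 untreated.

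The RPP2B probe (5′ of YDR382W on chromosome IV) read -0.16, -0.23 and -0.25 on the Ifh1 rapamycin arrays and -0.13, 0.02, 0.77 and -0.15 on the Ifh1 untreated arrays. The Fhl1 rapamycin arrays gave -0.83, -0.57, 0.01, 0.09 and -0.25, and the Fhl1 untreated arrays -0.87, -1.08 and 0.11. Outside Ifh1 rapamycin the probe lay above the array median, the side of other RP promoters, on 5 of 12 arrays. On the Ifh1 rapamycin arrays the signs are unsettled, and other RP promoters lay near the median. Means were -0.21 ± 0.05 for Ifh1 rapamycin, 0.13 ± 0.43 for Ifh1 untreated, -0.31 ± 0.39 for Fhl1 rapamycin and -0.62 ± 0.63 for Fhl1 untreated. In the R64 gene table COI1 lies between RPP2B and the reading frame that names this probe, and the sources used here do not say which stretch of the region the spot covers.

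Whether a promoter stood apart from the array median within a group was tested as the group mean against 0, where higher means toward the side of other RP promoters, with limma over all 6803 probes and Benjamini-Hochberg adjustment, called at an adjusted p under 0.05. On the Ifh1 rapamycin arrays 0 of the 6 stalk probes and 0 of all probes were called by limma (0% of probes, with 259 at an unadjusted p under 0.05). On the Ifh1 untreated arrays limma called 0 of the 6 and 22 of the 126 other RP probes (0.323% of all probes were called higher). An unadjusted limma p under 0.05 was reached by 3 of the 6, by 85 of the 126 other RP probes and by 501 of all 6803. The nearest was RPL12B (limma adjusted p = 0.0546), followed by RPP1B (adjusted p = 0.197) and RPL12A (adjusted p = 0.256). RPL12B passed with intergenic probes alone tested (limma adjusted p = 0.0498) and when Fhl1 rapamycin replicate 1 was left out (adjusted p = 0.0212).

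On the Fhl1 rapamycin arrays 2 of the 6 stalk probes were higher (0.911% of all probes were called higher), RPL12B with a limma adjusted p of 0.0110 and RPP1B with 0.0372. Of the other RP probes 59 of 126 were higher. The RPL12B call was lost without Fhl1 rapamycin replicate 1 (adjusted p = 0.0747), and the RPP1B call without any of 9 of the 15 arrays (limma adjusted p 0.0505 to 0.230). RPP0 at an adjusted p of 0.201 was not called in limma, and passed without Ifh1 rapamycin replicate 1 (adjusted p = 0.0466).

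On the Fhl1 untreated arrays 3 of the 6 stalk probes were higher (0.632% of all probes), and 40 of the 126 other RP probes. These were RPL12B (limma adjusted p = 0.0146), RPP1B (adjusted p = 0.0274) and RPL12A (adjusted p = 0.0498). All 3 calls were lost without Fhl1 untreated replicate 1 (limma adjusted p 0.331 to 0.604) and without replicate 2 (0.0582 to 0.464). RPP1B also lost its call without replicate 3 (limma adjusted p = 0.262), and RPL12A without any of 10 of the 15 arrays. The calls on the Fhl1 rapamycin and Fhl1 untreated arrays were all lost without centring, and when each group was fitted on its own arrays. RPP2B had the lowest mean of the 6 and an unadjusted p of 0.0386 in limma, with an adjusted p of 0.902.

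An equal-weight mean of Ifh1 untreated, Fhl1 rapamycin and Fhl1 untreated was added after the data had been seen, to use the 12 arrays with a settled sign together. It was higher for RPL12A (1.72, SE 0.27, limma adjusted p = 0.000876), RPL12B (1.42, SE 0.16, adjusted p = 2.98e-05) and RPP1B (1.12, SE 0.15, adjusted p = 0.00015), so for 3 of the 6 (1.47% of all probes were called higher). These 3 calls held in limma with any 1 array left out, while all 3 were lost with signs as deposited and that of RPP1B without centring (adjusted p = 0.0519). Of the other RP probes 84 of 126 were higher. RPP0 stood at 0.67 (SE 0.21, adjusted p = 0.211), RPP1A at 0.18 (SE 0.20, adjusted p = 0.948) and RPP2B at -0.27 (SE 0.14, adjusted p = 0.743).

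**Figure D2:**
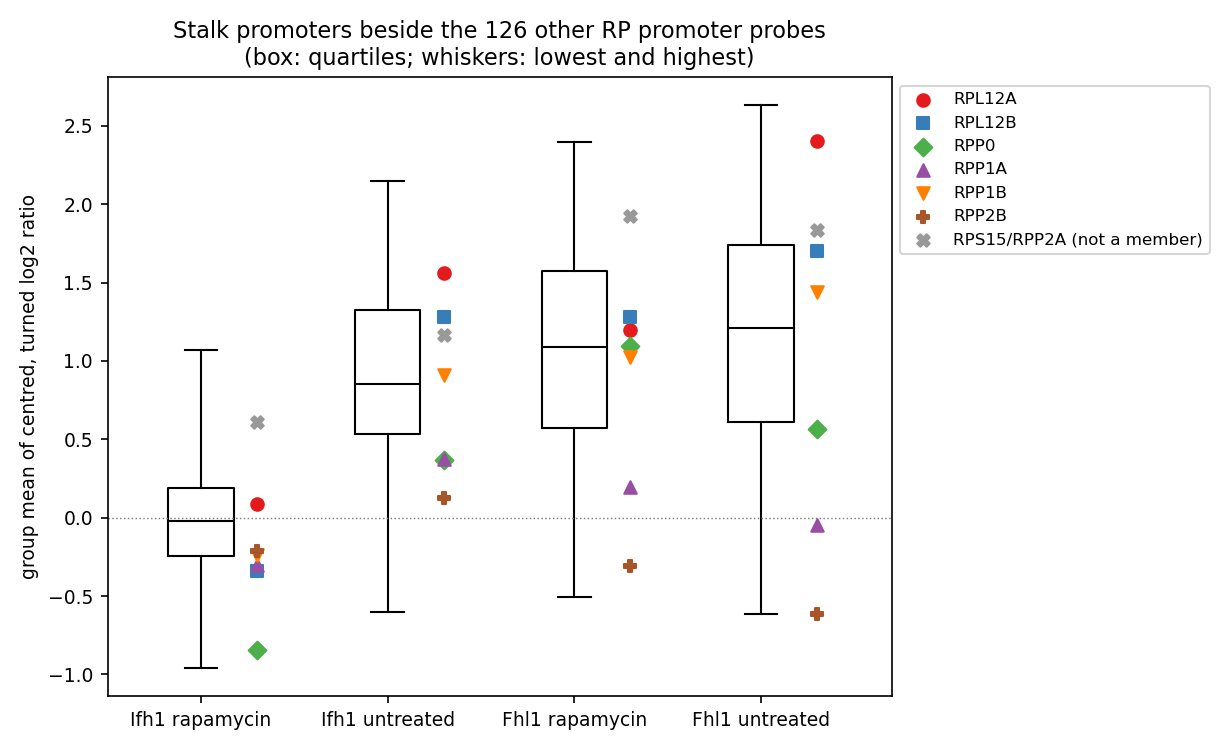
Group means of the centred, turned log2 ratio for the stalk promoter probes (symbols), beside boxes for the 126 other RP promoter probes (line: median; box: quartiles; whiskers: lowest and highest). The RPP2B and RPP1A means lie below the lower quartile of the other RP probes in Ifh1 untreated, Fhl1 rapamycin and Fhl1 untreated arrays. That of RPP0 does so in Ifh1 untreated and Fhl1 untreated. RPL12A lies above the upper quartile in Ifh1 untreated (1.56 against 1.33) and in Fhl1 untreated (2.41 against 1.74).

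Set among RP promoters, the stalk genes ran from rank 28 to rank 132 of 133 over the 12 settled arrays. Their median was -0.27 on Ifh1 rapamycin, 0.64 on Ifh1 untreated, 1.06 on Fhl1 rapamycin and 1.00 on Fhl1 untreated arrays. The median of the 126 other RP probes was -0.02 on Ifh1 rapamycin, 0.86 on Ifh1 untreated, 1.09 on Fhl1 rapamycin and 1.21 on Fhl1 untreated arrays, and all probes had medians between -0.02 and 0.01. Over the 12 settled arrays RPL12A averaged 1.62 ± 1.08 and ranked 28th of 133 RP probes. RPL12B averaged 1.39 ± 0.53 and ranked 48th, and RPP1B averaged 1.09 ± 0.52 and ranked 64th. RPP0 followed at 0.72 ± 0.62 and rank 90. RPP1A at 0.20 ± 0.71 ranked 118th and RPP2B at -0.24 ± 0.52 ranked 132nd. The SDs of neighbours in this order overlapped, and the differences between genes were not tested. Among all 6803 probes, RPP0 still lay at the 98.6th percentile, whereas RPP1A lay at the 85.6th and RPP2B at the 11.97th.

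RPL12B and RPP1B lay above 0, the side of other RP promoters, on 12 of the 12 settled arrays, RPL12A and RPP0 on 10, RPP1A on 6 and RPP2B on 5. RPL12A exceeded the median of other RP probes on 10 of these arrays, RPL12B on 9, RPP1B on 6, RPP0 on 4, RPP1A on 2 and RPP2B on 0.

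**Figure D3:**
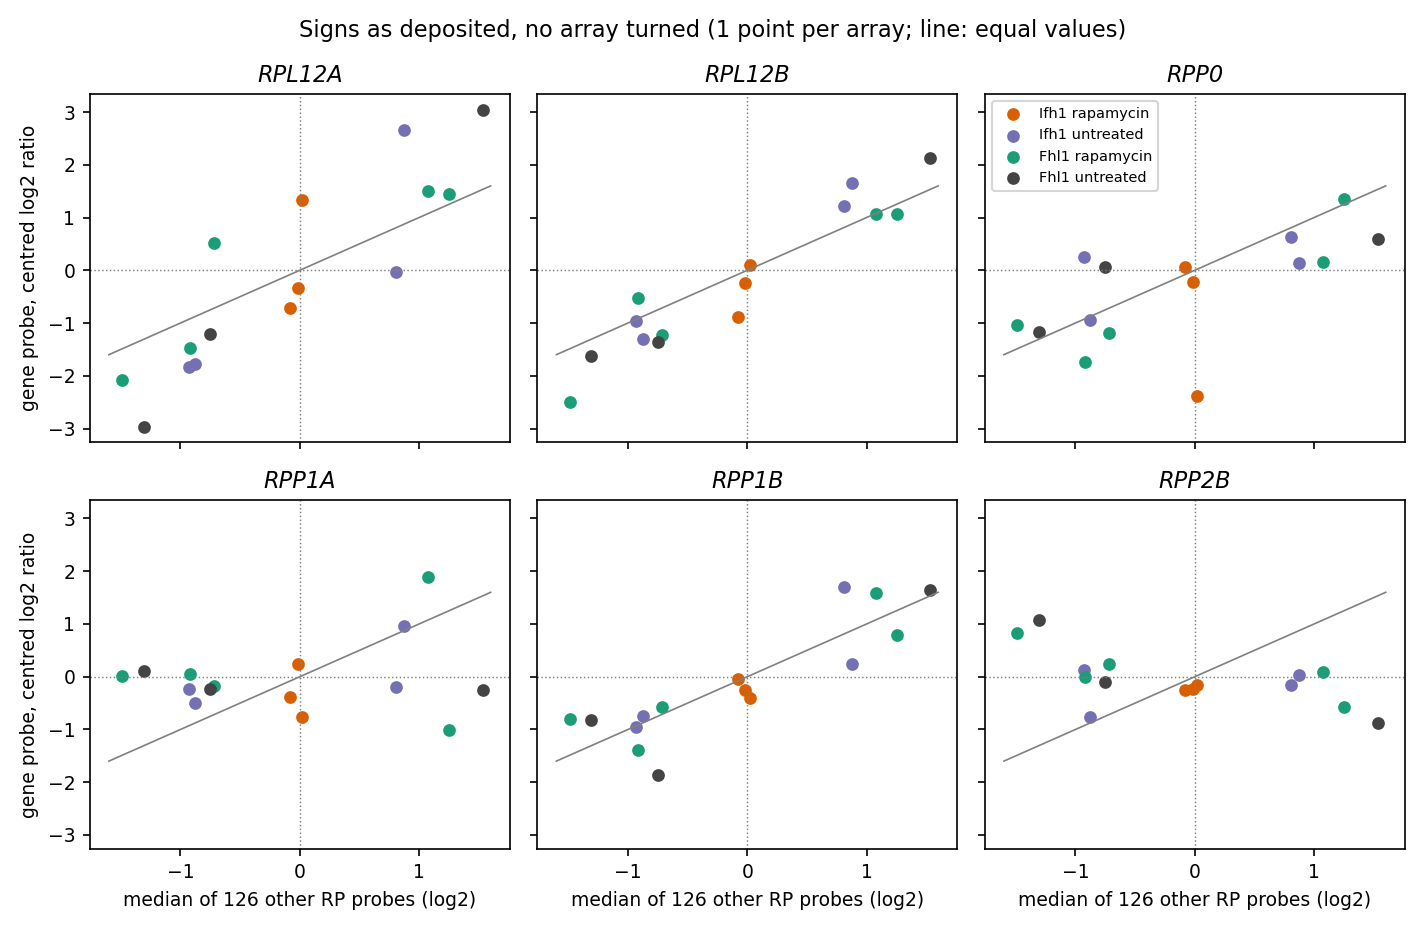
Centred log2 ratio of each stalk gene's 5′ probe (vertical) against the median of the 126 other RP probes (horizontal), 1 point per array, with no array turned. RPL12B and RPP1B points run along the line of equal values from the lower left to the upper right, RPP1A points scatter about 0, and RPP2B points lean the other way.

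The plot of values as deposited needs no choice of sign. The likeness of 2 probes was measured as the uncentred correlation (the cosine of their centred values over the 15 arrays), which does not change when arrays are turned. The arrays share the untagged reference strain and the points are not independent, so it is a description. Likeness to the median of other RP probes was 0.95 for RPL12B, 0.88 for RPL12A and 0.87 for RPP1B. It was 0.63 for RPP0, 0.19 for RPP1A and -0.58 for RPP2B. The RPL12 pair had a likeness of 0.87 to each other, and the RPP1 pair, RPP1A and RPP1B, 0.27. RPP1A and RPP2B, whose proteins form a dimer, had a likeness of 0.32.

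The intergenic probes most like each gene differed in kind. For RPL12B they were RPS22A/RPL39 (0.95), RPL23A (0.95) and RPL42B/CHS7 (0.95), where a slash joins the divergent genes that share a probe. For RPL12A they were RPL19A/AAC3 (0.93), TIM21/RPL26B (0.91) and RXT3/RPL31A (0.90). RPP1B was most like SLX8/RPL23B (0.93), RPL16A (0.92) and RPL37A (0.92). All 9 of these probes face an RP gene. RPP0 was most like MRX8 (0.85), YOR292C/RPS10A (0.84) and YGR018C/UGA1 (0.82), of which 1 faces an RP gene. For RPP1A the nearest were TPS1 (0.82), POP1/ADE12 (0.79) and PNG1 (0.79). For RPP2B they were a region that no 5′ end faces (iYGR127W, 0.76), DYN1/RHO4 (0.75) and VHT1 (0.73). None of these last 6 faces an RP gene.

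What rapamycin changed was asked for each protein in the same fit. For Ifh1, rapamycin minus untreated, limma called 0 of the 6 stalk probes and 0 of all probes (0%, with 372 at an unadjusted p under 0.05, among them RPL12B, RPP1B and RPP0). The differences were -1.63 for RPL12B (SE 0.42, limma adjusted p = 0.385), -1.47 for RPL12A (SE 0.70, adjusted p = 0.914) and -1.21 for RPP0 (SE 0.54, adjusted p = 0.859). They were -1.15 for RPP1B (SE 0.39, limma adjusted p = 0.762), -0.68 for RPP1A (SE 0.52) and -0.34 for RPP2B (SE 0.36). The median of the 6 was -1.18, against -0.93 for the other RP probes and 0.02 for all probes. Over the 8 ways of signing the Ifh1 rapamycin arrays, the RPL12B difference ran from -1.70 to -0.87, that of RPL12A from -2.36 to -0.76 and that of RPP1B from -1.15 to -0.67. The RPP0 difference ran from -1.25 to 0.52, that of RPP1A from -0.84 to 0.09 and that of RPP2B from -0.34 to 0.09, so their direction depends on signs that are not settled. Without Ifh1 rapamycin replicate 1 the RPP0 difference was -0.45 (limma adjusted p = 1.00).

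A comparison of sizes alone needs no sign. Every Ifh1 rapamycin array was smaller in size than every Ifh1 untreated array for 1 of the 6 stalk probes, RPL12B. This held for 3.31% of all probes and for 35 of the 126 other RP probes (27.8%). The arrays were cut into 3 sets, a number that was set and not found, by the correlation of their unturned values over probes outside RP promoters. In the 1 set that held both Ifh1 groups (2 rapamycin and 3 untreated arrays), signed differences were taken. These, unlike the sizes, depend on the unsettled signs of the rapamycin arrays, kept as deposited. They were -1.46 for RPL12B, -0.98 for RPL12A, -1.87 for RPP0, -1.23 for RPP1B, -0.68 for RPP1A and -0.41 for RPP2B.

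For Fhl1, rapamycin minus untreated, limma called 0 of the 6 and 0 of all probes (0%, with 232 at an unadjusted p under 0.05). RPL12A differed by -1.21 (SE 0.67), RPL12B by -0.42 (SE 0.40), RPP1B by -0.42 (SE 0.37), RPP1A by 0.24 (SE 0.49), RPP2B by 0.31 (SE 0.35) and RPP0 by 0.53 (SE 0.52), each at a limma adjusted p of 0.999. The median of the 6 was -0.09, against -0.10 for the other RP probes and 0.01 for all probes. In the 2 array sets that held both Fhl1 groups, the RPL12A difference was -1.54 and -0.71 and the RPP0 difference 0.66 and 0.73. The RPL12B difference there was -1.07 and -0.21, and the RPP1B difference -0.15 and -0.79. RPP1A (-0.35 and 0.79) and RPP2B (0.70 and -0.19) changed direction between the sets.

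The test of whether rapamycin acted differently on Ifh1 than on Fhl1, the difference between both differences, called 0 of the 6 and 0 of all probes in limma (0%, with 285 at an unadjusted p under 0.05). RPP0 had -1.74 (SE 0.75, unadjusted p = 0.0327), RPL12B -1.20 (SE 0.58, unadjusted p = 0.0532), RPP1A -0.92 (SE 0.71) and RPP1B -0.73 (SE 0.54), each at a limma adjusted p of 1.00. RPP2B had -0.65 (SE 0.50) and RPL12A -0.26 (SE 0.97). Over the 8 ways of signing the Ifh1 rapamycin arrays, RPP0 ran from -1.78 to -0.0081 and RPL12B from -1.27 to -0.45, and RPL12A turned direction (-1.15 to 0.45). Without Ifh1 rapamycin replicate 1 the RPP0 value was -0.97. A different effect on the stalk promoters is therefore not shown.

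Ifh1 and Fhl1 were also set against each other at the same treatment. With rapamycin, Ifh1 minus Fhl1 was -1.94 for RPP0 (SE 0.52, limma adjusted p = 0.256), -1.62 for RPL12B (SE 0.40, adjusted p = 0.195) and -1.26 for RPP1B (SE 0.37, adjusted p = 0.424). It was -1.11 for RPL12A (SE 0.67), -0.50 for RPP1A (SE 0.49) and 0.09 for RPP2B (SE 0.35). Limma called 0 of the 6, while 12 probes were lower (0.176% of all probes), all of them upstream of other RP genes. In all, 378 probes had an unadjusted p under 0.05, among them RPP0, RPL12B and RPP1B. Over the 8 ways of signing the Ifh1 rapamycin arrays, RPP0 ran from -1.98 to -0.21, RPL12B from -1.69 to -0.87, RPP1B from -1.26 to -0.79 and RPL12A from -1.996 to -0.40. RPP2B ran from 0.09 to 0.52, and RPP1A turned direction (-0.66 to 0.27). Without Ifh1 rapamycin replicate 1 the RPP0 difference was -1.17 (limma adjusted p = 0.997). In size, every Ifh1 rapamycin array was below every Fhl1 rapamycin array for 1 of the 6 probes, RPP1B. This held for 2.56% of all probes and 39 of 126 other RP probes (31.0%). In the 2 array sets that held both groups, signed differences again used the Ifh1 rapamycin signs as deposited. The RPL12B difference was -0.87 and -2.03, that of RPP1B -1.42 and -1.11, and that of RPP0 -2.84 and -0.61.

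In untreated cells Ifh1 minus Fhl1 was -0.84 for RPL12A (SE 0.70), -0.53 for RPP1B (SE 0.39), -0.42 for RPL12B (SE 0.42) and -0.20 for RPP0 (SE 0.54). It was 0.42 for RPP1A (SE 0.52) and 0.74 for RPP2B (SE 0.36), each at a limma adjusted p of 0.997. Limma called 0 of the 6 and 0 of all probes (0%, with 283 at an unadjusted p under 0.05). In the 1 array set that held both untreated groups (3 Ifh1 and 2 Fhl1 arrays) these differences were -1.53 for RPL12A, -0.34 for RPP1B, -0.48 for RPL12B, -0.30 for RPP0, 0.61 for RPP1A and 1.19 for RPP2B.

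**Figure D4:**
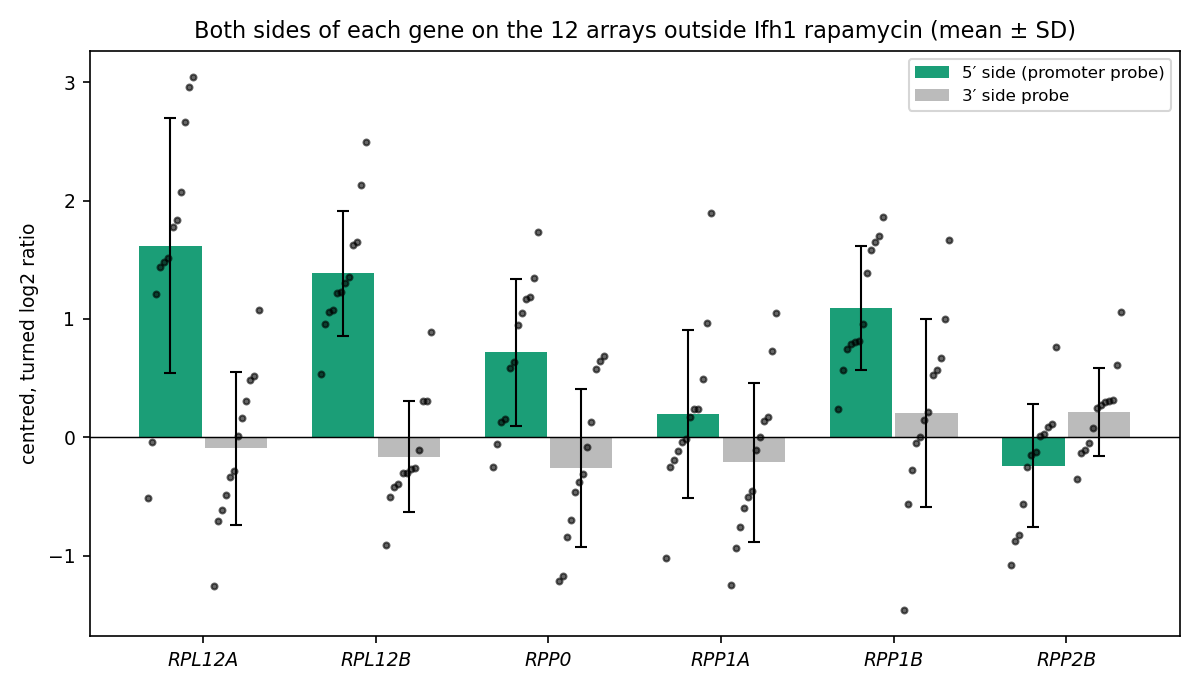
Centred, turned log2 ratio of the 5′ probe (green) and the 3′ probe (grey) of each stalk gene on the 12 arrays outside Ifh1 rapamycin, as mean ± SD with 1 point per array. The 5′ mean is above the 3′ mean for RPL12A, RPL12B, RPP0, RPP1B and RPP1A, and below it for RPP2B.

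Each stalk gene also had a probe on its 3′ side. Several of these lie on the promoter side of another gene: POL5 for RPL12A, RAD30 for RPL12B, SPO77 for RPP0 and YDL129W for RPP1B. Over the 12 settled arrays the 5′ and 3′ means were 1.62 ± 1.08 and -0.09 ± 0.64 for RPL12A, whose 3′ region also holds the snoRNA gene SNR80. They were 1.39 ± 0.53 and -0.16 ± 0.47 for RPL12B and 0.72 ± 0.62 and -0.26 ± 0.67 for RPP0. For RPP1B they were 1.09 ± 0.52 and 0.20 ± 0.79. RPP1A gave 0.20 ± 0.71 and -0.21 ± 0.67, with its 3′ region shared with the 3′ end of RPL13A. RPP2B gave -0.24 ± 0.52 and 0.21 ± 0.37. Limma called 0 of the 6 3′ probes in each of the 4 groups, the 5 comparisons between groups and the equal-weight mean, with at most 1 of them at an unadjusted p under 0.05 in any. The side of a gene was not tested against the other side, since the spots are different probes.

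The stalk's partners in the cell were listed as well, from assembly factors (MRT4 and YVH1) and methyltransferases to elongation factors and the Gcn2 pathway that senses stalled ribosomes, with 11 probes for 13 genes. Limma called 0 of these 11 in the 4 groups and in the 5 comparisons between groups, where the lowest adjusted p was 0.167. In the equal-weight mean 2 of 11 were higher (1.47% of all probes were), both upstream of genes of the elongation factor eEF1A. TEF1 stood at 0.76 (SE 0.17, limma adjusted p = 0.0240), and TKL2/TEF2 at 0.70 (SE 0.16, adjusted p = 0.0334). The median of the 11 was 0.11, against 0.90 for the 6 stalk probes and -0.01 for all probes.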

How the data were processed

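The deposited table holds log2 ratios of 6803 probes on 15 arrays, uncentred, with 9 missing values. Base 2 was inferred, since raising 2 to each value gave a ratio of 3 decimals in 100% of cases (within 0.002 of the last decimal, times the ratio where above 1). Per the labels, precipitated DNA went through ligation-mediated PCR, received Cy3 or Cy5 and was read on a GenePix 4000A with GenePix Pro 4.0. The sources used here do not give the authors' background correction or normalisation. The number of arrays limits the precision, and no depth applies.

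The median of each array was subtracted, without loess or quantile normalisation, and arrays were turned as described, at a threshold of 0.3. The 4 group means were fitted jointly to the 15 arrays with lmFit and eBayes of limma 3.58.1 in R 4.3.3. Tests were two-sided, with Benjamini-Hochberg adjustment over all 6803 probes and a threshold of 0.05. The fit was tested on simulated data. Summaries used Python 3.11.15 with pandas 2.3.3 and numpy 2.4.6. Arrays may share a reference preparation, whose spread the tests against 0 then leave out.

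Probe names give 1 reading frame each. The region lies on its higher-coordinate side: a probe existed for 48 of 62 genes whose gap is on that side alone and for 5 of 66 whose gap is on the lower side alone. Neighbours came from NCBI's R64 table, which held 5307 of the 5574 frames. No coordinates or promoter sequences are printed, because the array's build is not given and no sequence was used here, and motifs were therefore not counted.

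The members and lists were chosen with earlier results of these data known. The rule names all members, RPP2A, the 3 intergenic probes most like each member, the 3′ probes, and members of the partner list if called. Other RP genes were those of symbols RPL or RPS with a number, giving 73 large-subunit and 56 small-subunit probes, 126 in all since some serve both. Alternatives were other signs, no centring, scaled arrays, intergenic probes alone, the compared arrays alone, blocks for replicate number or array set, each array left out, and, added after seeing the data, a dye effect and the fit without the Ifh1 rapamycin arrays.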

Additional observations from a re-analysis of the deposited data

Results flagged for a closer look

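Of 28 groups of 4 or 5 arrays checked among the 5′ and 3′ probes of the 6 stalk genes and of RPP2A, 2 held an array far from the others by Dixon's criterion, and chance alone gives about 1 in 20. The RPL12A promoter probe read -0.52 on Fhl1 rapamycin replicate 5, while the other 4 arrays of that group read 1.44 to 2.07. Without that array the Fhl1 rapamycin mean of RPL12A was 1.63 (limma adjusted p = 0.0951), against 1.20 with it. The 3′ probe of RPL12B read 0.89 on Ifh1 untreated replicate 2, while the other 3 arrays read -0.30 to -0.11.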

How the results depend on the processing

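With signs as deposited, limma called 0 stalk probes in every group, and the means turned to the other side: for Fhl1 untreated -0.34 for RPP1B, -0.28 for RPL12B and -0.38 for RPL12A, for Fhl1 rapamycin -0.077 for RPP1B and -0.42 for RPL12B, and for the equal-weight mean -0.12, -0.18 and -0.21 for RPP1B, RPL12B and RPL12A. Arrays of opposite sign then average out by construction. The counts of 3 stalk probes called for Fhl1 untreated and 2 for Fhl1 rapamycin became 0 and 0 without centring, and 0 and 0 with the compared arrays alone. They were 1 and 1 without the Ifh1 rapamycin arrays, and for Fhl1 rapamycin 1 with the array set as a block. The cause was not tested. The count for Ifh1 untreated was 1 instead of 0 with intergenic probes alone, where fewer probes were tested. Leaving out 1 array gave 0 to 3 for Fhl1 untreated, 0 to 3 for Fhl1 rapamycin and 0 to 1 for Ifh1 untreated. The equal-weight mean kept its count of 3 in each of these fits except with signs as deposited (0) and without centring (2, with RPP1B lost).

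With the replicate number as a block, 0 stalk probes were called for Fhl1 untreated, 2 for Fhl1 rapamycin and 3 in the equal-weight mean. The numbers were not taken to pair arrays: over 19 pairs of equal number the correlation of deviations ran from -0.32 to 0.27, with 5 over 0.1. Over all probes, the block gave 11 calls for Fhl1 untreated, against 44, and 2 for Ifh1 untreated, against 22. With 1 array left out the calls over all probes ran from 10 to 49 for Fhl1 untreated, 35 to 69 for Fhl1 rapamycin (65 with all), 5 to 26 for Ifh1 untreated and 3 to 15 for Ifh1 minus Fhl1 with rapamycin (12 with all). For that comparison the other signs of the Ifh1 rapamycin arrays gave 4 to 12, scaling 6, the array set block 22 and the dye effect 3. Ifh1 untreated had 11 with the array set block. For Ifh1, rapamycin minus untreated, calls over all probes were 3 with that block, against 0. They were 0 to 1 with other signs of the Ifh1 rapamycin arrays, and 0 to 1 with 1 array left out. None of these calls was a stalk probe. Without centring, counts over all probes were 0 in each group and comparison and 63 in the equal-weight mean, against 104. With the compared arrays alone they were 0 for Fhl1 untreated, for Ifh1 untreated and for Ifh1 minus Fhl1 with rapamycin. Over 1896 values of single stalk probes, 1762 counted as unchanged, meaning a call kept with its direction, or an uncalled value that moved by under 1 SD. Of the rest, 44 lost a call, 3 gained one, 79 uncalled values moved by 1 SD or more, and 8 called values reversed. Direction was not checked for values uncalled in both fits.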
